A study of Mus musculus with 6 samples.

Results

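Mitosis and DNA replication genes were followed in mouse chondrocytes (cartilage cells) that had been expanded as a monolayer and expressed either a mutant or a wild-type histone H3.3. The set held 36 named genes, of which 20 act in mitosis and 16 in DNA replication or in entry into S phase, the phase in which DNA is copied. The genes were chosen by name, and all 36 were found among the 35976 genes of the count table. All 36 also passed the filter on low counts, which left 13761 genes for testing. Their raw counts ran from 219 for Cdc6 in its lowest library to 12204 for Mki67 in its highest.

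The cells came from articular cartilage of the hind limbs of C57BL/6 x 129S4/SvJae mice at embryonic day 18.5. They were kept on plastic for 16 population doublings, in DMEM-F12 medium with fetal bovine serum. In both groups doxycycline at 2 µg/ml, renewed with the medium, induced an H3.3 transgene. The H3K9M transgene carries methionine in place of the lysine whose methylation marks silenced chromatin, and the labels give this genotype as H3K9 methylation suppressed. The H3WT group, the control, expressed wild-type H3.3. There were 3 polyadenylated RNA libraries of H3K9M (replicates 1, 3 and 5) and 3 of H3WT (replicates 1, 2 and 4). No label states whether a replicate is 1 animal, 1 litter or 1 culture, so the p-values measure the spread between these samples, which may be technical.

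Dividing cells make these transcripts in waves. Before S phase, E2F factors, once released from the retinoblastoma protein, switch on genes that load the MCM helicase on origins, build deoxynucleotides and start DNA synthesis. Before and during mitosis, a later wave supplies cyclin B and Cdk1, the spindle motors, the kinetochore and the checkpoint that holds anaphase until every chromosome is attached. In resting cells the DREAM complex keeps both waves low, through E2F elements for the early genes and through the cell cycle homology region (CHR) for the late ones, often beside boxes bound by the factor NF-Y.

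Promoter windows are shown first, because both classes of element can be read in them and because the mitosis and replication genes differed in which they held. Each window runs from 250 bases before to 50 bases after a RefSeq start site (GRCm38.p6, the same assembly as mm10) and is written 5′ to 3′ on the strand of the gene. Capitals mark every match, on either strand, to a CHR (TTTGAA or TTCGAA, reverse complement TTCAAA for the first), an E2F element (TTTCCCGC, TTTGGCGC, TTTCGCGC or TTTGCCGC) or the NF-Y box (CCAAT, reverse complement ATTGG). Matches may overlap each other. Ccnb1 (chr13:100786437-100786736, minus strand), Top2a (chr11:99024140-99024439, minus strand) and Mki67 (chr7:135716330-135716629, minus strand) are the mitosis genes with a window that had the smallest p-values between the groups. Cdc6 (chr11:98907901-98908200, plus strand) and Mcm2 (chr6:88898731-88899030, minus strand) were taken from the replication genes by the same rule. Cdk1 (chr10:69352863-69353162, minus strand) was added after the matches were seen, as the mitosis window that held all 3 kinds of element.
Ccnb1: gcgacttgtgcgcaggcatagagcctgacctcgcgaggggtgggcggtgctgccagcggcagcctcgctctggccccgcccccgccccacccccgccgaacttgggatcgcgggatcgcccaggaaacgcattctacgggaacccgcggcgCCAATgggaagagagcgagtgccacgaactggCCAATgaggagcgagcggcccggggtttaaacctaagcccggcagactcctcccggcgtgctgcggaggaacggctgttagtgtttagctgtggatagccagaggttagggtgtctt
Top2a: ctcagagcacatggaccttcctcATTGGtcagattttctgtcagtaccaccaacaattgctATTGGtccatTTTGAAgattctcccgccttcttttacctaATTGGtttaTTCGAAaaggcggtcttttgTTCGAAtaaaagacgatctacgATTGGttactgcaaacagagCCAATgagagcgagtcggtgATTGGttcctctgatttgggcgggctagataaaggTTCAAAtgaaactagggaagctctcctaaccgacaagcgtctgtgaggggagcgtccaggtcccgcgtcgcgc
Mki67: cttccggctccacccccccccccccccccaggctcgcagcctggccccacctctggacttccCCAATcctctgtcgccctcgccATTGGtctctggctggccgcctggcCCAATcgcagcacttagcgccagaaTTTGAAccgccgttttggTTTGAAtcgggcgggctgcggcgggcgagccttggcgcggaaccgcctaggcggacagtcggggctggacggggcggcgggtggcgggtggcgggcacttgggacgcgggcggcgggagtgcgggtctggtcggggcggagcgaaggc
Cdk1: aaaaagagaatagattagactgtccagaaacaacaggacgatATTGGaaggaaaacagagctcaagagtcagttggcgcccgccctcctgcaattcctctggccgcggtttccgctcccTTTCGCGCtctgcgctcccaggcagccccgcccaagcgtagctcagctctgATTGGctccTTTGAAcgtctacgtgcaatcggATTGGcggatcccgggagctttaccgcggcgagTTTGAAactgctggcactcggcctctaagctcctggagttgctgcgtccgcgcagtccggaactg
Mcm2: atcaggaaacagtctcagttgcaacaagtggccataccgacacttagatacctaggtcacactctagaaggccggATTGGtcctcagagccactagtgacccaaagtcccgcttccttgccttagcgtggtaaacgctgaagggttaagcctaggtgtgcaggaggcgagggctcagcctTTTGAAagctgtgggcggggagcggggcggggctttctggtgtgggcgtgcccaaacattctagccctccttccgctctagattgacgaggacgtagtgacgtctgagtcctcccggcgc
Cdc6: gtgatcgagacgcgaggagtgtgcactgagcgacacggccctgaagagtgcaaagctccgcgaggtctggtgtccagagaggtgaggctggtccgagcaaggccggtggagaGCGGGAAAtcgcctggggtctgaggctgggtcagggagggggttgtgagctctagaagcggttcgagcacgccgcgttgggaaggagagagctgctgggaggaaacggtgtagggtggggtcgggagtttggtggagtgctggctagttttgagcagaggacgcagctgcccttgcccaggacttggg

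In these windows Top2a held 4 CHR and 6 NF-Y box matches, with the CHR nearest its start site beginning 23 bases before it. Mki67 held 2 CHR and 3 NF-Y box matches. The Ccnb1 window held 2 NF-Y boxes and neither of the other elements in the letters searched. Cdk1 held 2 CHR, 1 E2F and 3 NF-Y box matches, Mcm2 held 1 CHR and 1 NF-Y box, and Cdc6 held 1 E2F match. The Cdc6 start site is that of an annotated coding transcript and lies 350 bases inside the outermost annotated start of the gene. The rule also named E2f1, but the RefSeq start site of its window lies 294 bases from the nearest start of a coding transcript in GENCODE M21, inside the gene, so it is not printed. For Pcna that distance was 134 bases, and for the other 29 of 31 windows it was at most 100 bases.

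Across all members, 30 of 36 had a promoter entry, and Mcm7 had 2 windows. A CHR was present in 14 of 17 windows of mitosis genes (82.4%) and in 2 of 14 windows of replication genes (14.3%), against 19.2% of all 32851 windows of this length. The 3 mitosis windows without one belonged to Birc5, Ccnb1 and Cenpe. E2F elements showed the opposite split, with 6 of 14 replication windows (42.9%, in Cdc6, Cdt1, Mcm3, Mcm5, Mcm6 and Mcm7) and 1 of 17 mitosis windows (5.88%, Cdk1) against 2.27% of all windows. NF-Y boxes were present in 16 of 17 mitosis windows (94.1%), 9 of 14 replication windows (64.3%) and 37.4% of all windows. Cdk1 and 1 of the Mcm7 windows held both a CHR and an E2F element, as did 0.317% of all windows. The replication shares include the windows of E2f1 and Pcna, whose start sites lie further from a coding start. Neither held a CHR or an E2F element. These matches describe letters and do not show that a factor was bound.

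**Figure D1:**
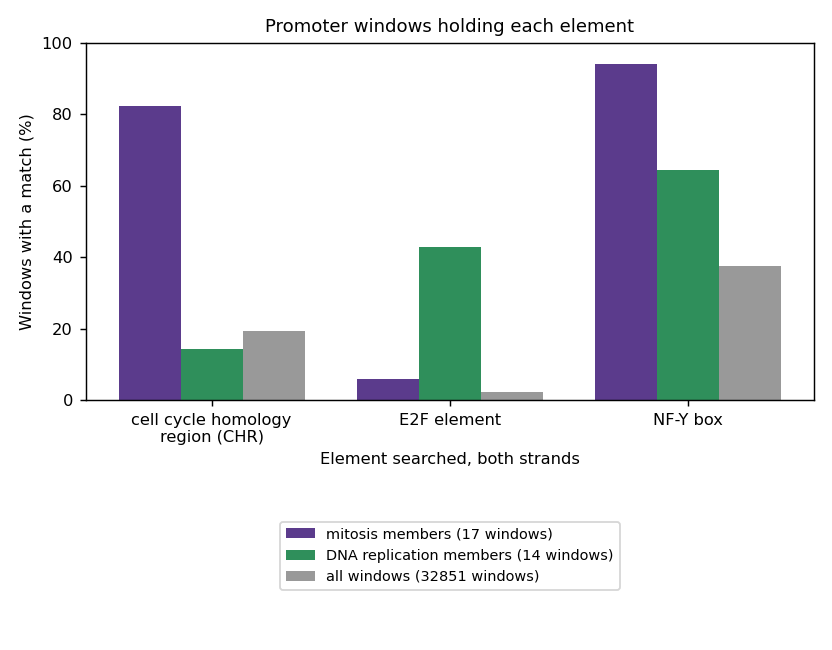
Percentage of 300-base promoter windows that hold each element on either strand, for 17 windows of mitosis genes, 14 windows of DNA replication genes and all 32851 windows. The CHR bar is highest for mitosis genes (82.4%) and the E2F bar for replication genes (42.9%).

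Total counts per library ran from 15113675 to 19606082. The 36 genes took between 0.281% (95% Wilson interval 0.279% to 0.284%, H3WT replicate 4) and 0.468% (0.464% to 0.471%, H3WT replicate 2) of a library's counts, and the interval covers counting error only. Replicate pairs of 1 group differed by 28.3 to 122 times sampling variance (chi-square over genes, per degree of freedom). No library was therefore a mere resequencing of another of its group, but this does not show that they came from different cultures. All 12 of the chondrocyte markers found in the table were above 3 counts in some library, and their summed level ran from 7255 to 19390 CPM (counts scaled to a common library size, with TMM factors). Fibroblast markers summed to between 10650 and 36580 CPM. Of macrophage and blood markers, 8 of 12 stayed at or under 3 counts in every library, Ptprc among the 6 at 0, and of endothelial markers 4 of 8 did. Skeletal muscle markers summed to 168, 239 and 28.9 CPM in H3K9M replicates 1, 3 and 5 and to between 13.2 and 34.3 CPM in H3WT. Neither H3.3 gene passed the test (log2 fold change -0.07 for H3f3a and 0.06 for H3f3b), and counts per gene do not show which transgene a library expressed.

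The comparison of H3K9M with H3WT asked whether transcripts of the cell cycle differed after expansion with suppressed H3K9 methylation. None of the 36 genes passed an adjusted p of 0.05 (edgeR quasi-likelihood test, Benjamini-Hochberg over all 13761 genes), and over all genes 0 passed, a background of 0%. DESeq2 and limma-voom called none of the 36 either. Over all genes DESeq2 called 365, limma-voom 0, and edgeR 91 when H3WT replicate 2 was left out. At an unadjusted p under 0.05, 1 member was lower in H3K9M (E2f1), where 5.77% of all genes were, and 0 were higher, where 6.42% of all genes were. No member had all 3 values of 1 group above or below all 3 of the other, which held for 8.68% of all genes in the lower direction and 10.7% in the higher. With 1 library fewer, 13 members did not overlap without H3WT replicate 4 (lower) and 5 without H3K9M replicate 3 (higher). Groups part more easily with 1 library fewer. No share over all genes was counted for those fits, so these counts cannot be set against the shares above. The smallest adjusted p of a member was 0.361 and over all genes it was 0.0987.

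The estimates were small. The log2 fold change of H3K9M over H3WT ran from -0.66 (E2f1) to 0.34 (Ccnb1), with a median of -0.11, against -0.003 over all genes. The median was -0.08 for the mitosis genes and -0.18 for the replication genes. The estimate was below 0 in 27 of the 36 genes and above 0 in 9, and over all genes it was below 0 in 6934 of 13761. Of the 20 mitosis genes 12 were below 0. On leaving out a library this count ran from 1 (without H3K9M replicate 3) to 16 (without H3K9M replicate 1 or H3WT replicate 4). For 35 of the 36 genes the estimate moved by more than 1.5 times or turned its sign on leaving out a single library. The median and the count below 0 moved with single libraries too: without H3K9M replicate 3 the median was 0.07 and 12 estimates were below 0, and without H3WT replicate 2 they were 0.01 and 16. For 30 of the 36 (83.3%) the 95% interval lay within a 2-fold change either way, as it did for 59.1% of all genes. The intervals that passed 2-fold were those of Plk1, Ube2c, Cenpa, Cdc6, Ccne1 and E2f1, which leaves room for a 2-fold difference in these genes.

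**Figure D2:**
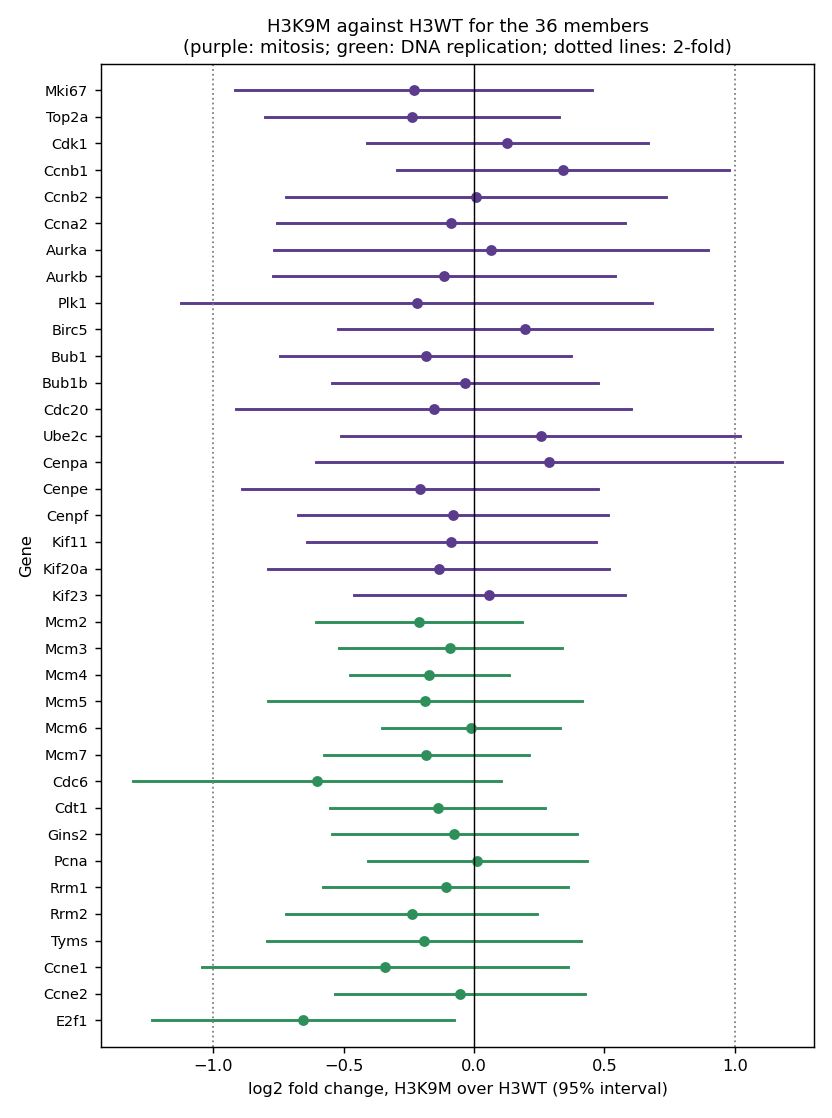
Log2 fold change of H3K9M over H3WT (x axis, points) with 95% intervals (lines) for the 20 mitosis genes (purple) and the 16 replication genes (green), with dotted lines at a 2-fold change. The interval of E2f1 alone does not reach 0, and 30 of the 36 intervals stay between the dotted lines.

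The libraries within each group differed from one another. Summed over the 36 genes, H3K9M replicates 1, 3 and 5 had 4123, 2641 and 4124 CPM, and H3WT replicates 1, 2 and 4 had 4406, 4536 and 2947 CPM. H3K9M replicate 3 and H3WT replicate 4 were low and the other 4 libraries lay close together, so each group held 1 low library. The means were 3629 ± 856 and 3963 ± 882 CPM (SD, n = 3 each), a difference smaller than either SD. In bulk RNA, fewer cycling cells and less of these transcripts per cycling cell cannot be told apart.

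The split was sharper in mitosis genes. Their sum was 2578, 1490 and 2742 CPM in H3K9M and 2795, 2806 and 1721 CPM in H3WT, with the highest library 1.88 times the lowest. For replication genes the sum was 1545, 1152 and 1382 CPM in H3K9M and 1610, 1730 and 1225 CPM in H3WT, 1.5 times from lowest to highest. The ratio of the mitosis sum to the replication sum was therefore lowest in the same libraries, at 1.29 in H3K9M replicate 3 and 1.41 in H3WT replicate 4, against 1.62 to 1.98 in the rest.

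**Figure D3:**
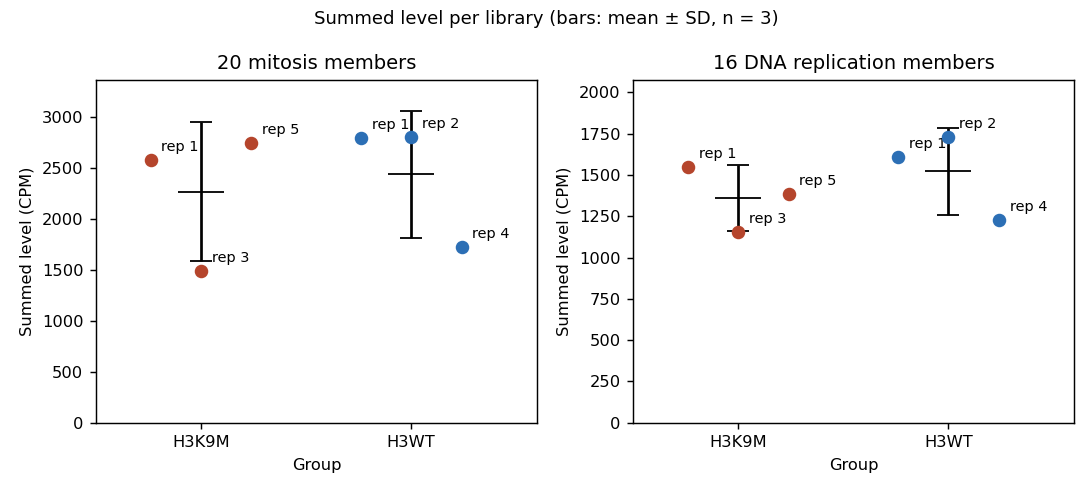
Summed level in CPM (y axis) of the 20 mitosis genes (left) and the 16 replication genes (right) in each library, with the mean and SD of 3 libraries per group. H3K9M replicate 3 and H3WT replicate 4 are the lowest points of their groups in both panels.

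Gene by gene the order was the same. H3K9M replicate 3 and H3WT replicate 4 were the 2 lowest of the 6 libraries in 20 of 20 mitosis genes and in 10 of 16 replication genes, while 6.74% of all tested genes had that order. The order was noticed in these data and is given as a description, since members of 1 pathway are not independent of each other. The exceptions were Mcm4, Mcm6, Cdt1, Gins2, Ccne1 and E2f1. The median within-group SD on the log2 scale was 0.46 for mitosis genes and 0.27 for replication genes, against 0.20 for the 7874 genes expressed at or above the lowest member. Cenpa (0.62) and Plk1 (0.62) varied most and Mcm4 (0.15) least. The cause of the library differences was not tested. Chondrocyte markers did not follow the same order, with their highest sum in H3WT replicate 2 (19390 CPM) and their lowest in H3WT replicate 1 (7255 CPM). The sum of 7 markers of hypertrophic (enlarged) chondrocytes was highest in H3K9M replicate 3 (2704 CPM) and H3WT replicate 4 (1479 CPM). Elsewhere it was 726 to 1302 CPM. Spp1 made up most of it, with 2401 and 1005 CPM in those 2 libraries, but it also had 1004 CPM in H3WT replicate 2. The median deviation of the 7 from their gene means was -0.40 in H3K9M replicate 3 and 0.84 in H3WT replicate 4 (log2). Any link to the mitosis genes was not tested.

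**Figure D4:**
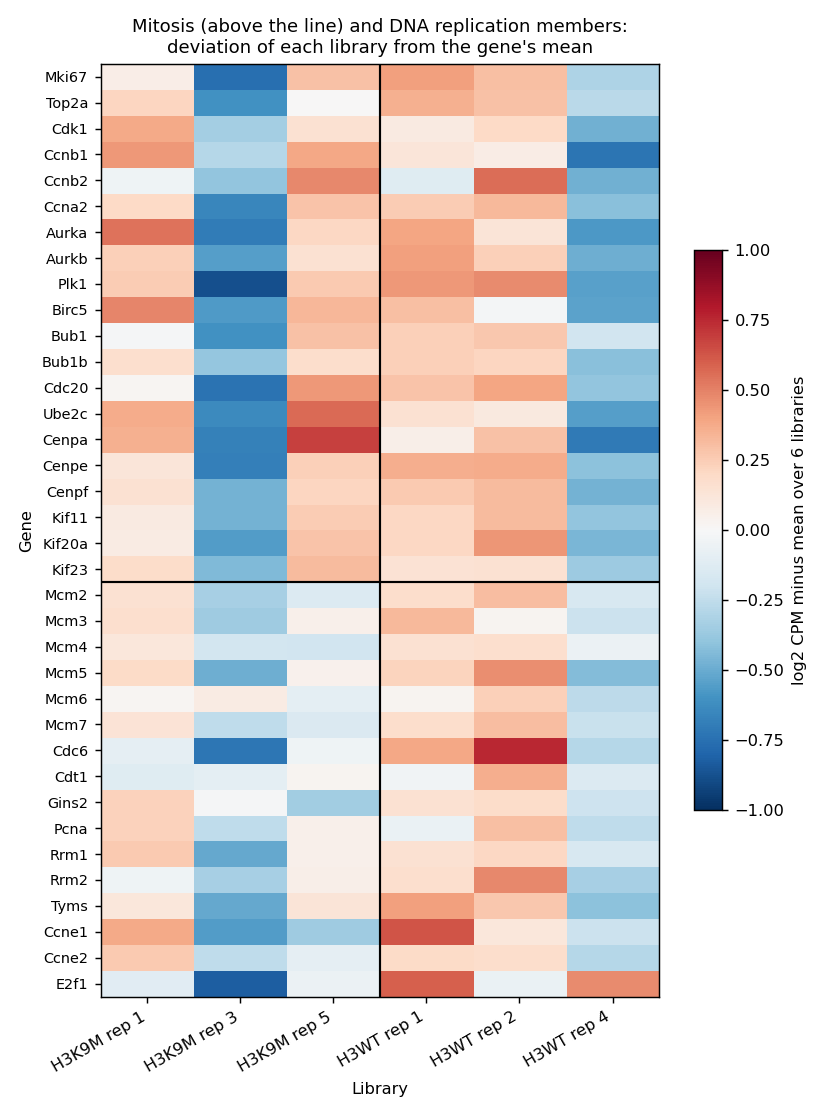
Deviation of each library (columns) from the mean of the gene over 6 libraries on the log2 CPM scale, for 20 mitosis genes (above the line) and 16 replication genes (below). H3K9M replicate 3 and H3WT replicate 4 are blue, that is below the mean, in every mitosis gene, and E2f1 in the bottom row is above it in H3WT replicate 4.

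Among general proliferation genes, Mki67 encodes the Ki-67 antigen that coats mitotic chromosomes. Mki67 had 532, 302 and 623 CPM in H3K9M replicates 1, 3 and 5 and 675, 625 and 410 CPM in H3WT replicates 1, 2 and 4. The groups overlapped, with the low library of each far from its other 2. By edgeR the log2 fold change of -0.23 had an SE of 0.29 and an adjusted p of 0.806. Top2a, the topoisomerase that untangles sister chromatids, had 350, 198 and 303 CPM in H3K9M and 385, 370 and 250 CPM in H3WT. Its estimate was -0.24 on the log2 scale (SE 0.24, adjusted p 0.744, edgeR), and the H3K9M values again spanned most of the H3WT range.

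Cdk1, the kinase that drives entry into mitosis, had 101, 61.2 and 86.1 CPM in H3K9M and 82.4, 89.0 and 55.7 CPM in H3WT, an estimate of 0.13 on the log2 scale (SE 0.23, adjusted p 0.875, edgeR). Its partner cyclin B1 (Ccnb1) had 79.8, 48.5 and 77.2 CPM in H3K9M and 64.3, 62.2 and 35.6 CPM in H3WT. Here 2 of 3 H3K9M libraries lay above every H3WT library, and the third lay between them. The log2 fold change of Ccnb1, the highest of the 36, was 0.34 (95% interval -0.30 to 0.98, adjusted p 0.659, edgeR). It was 0.12 without H3WT replicate 4, 0.55 without H3K9M replicate 3 and 0.15 with offsets for GC content and transcript length. The B-type cyclin Ccnb2 (0.01) and the S and G2 phase cyclin Ccna2 (-0.09) had estimates near 0.

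The mitotic kinases were no further apart. Aurka, which matures the centrosomes, had a log2 fold change of 0.06, Plk1, which acts at centrosomes, kinetochores and the midzone, -0.22, and Aurkb, the kinase of the chromosomal passenger complex, -0.12. Birc5, survivin, the passenger subunit that brings Aurkb to the centromere, had 0.20. Summed over these 4 genes the level was 351, 166 and 325 CPM in H3K9M and 360, 332 and 188 CPM in H3WT, so the highest library had 2.17 times the lowest while the group means were 280.9 and 293.5 CPM.

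Bub1 and Bub1b, which keep the spindle checkpoint active at unattached kinetochores, had log2 fold changes of -0.19 and -0.04. Cdc20, the activator of the anaphase promoting complex that the checkpoint holds back, had -0.15, and Ube2c, the E2 enzyme of that complex, 0.25. Without H3K9M replicate 3, Ube2c had 0.55 (unadjusted p 0.0394, adjusted p 0.486, edgeR). Of the centromere genes, Cenpa, the histone H3 variant of centromeric chromatin, had 0.29 with the widest standard error of the 36 (0.38), and the kinetochore proteins Cenpe and Cenpf had -0.21 and -0.08. The motors Kif11, which separates the spindle poles, Kif20a and Kif23, which act in cytokinesis, had -0.09, -0.14 and 0.06. Adjusted p-values of these 10 genes ran upward from 0.808 (edgeR).

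The 16 replication genes had a median log2 fold change of -0.18, and 15 of the 16 estimates were below 0 (11 without H3K9M replicate 3 and 10 without H3WT replicate 2). None of them passed the adjusted test. The MCM genes encode the 6 subunits of the replicative helicase, and all 6 estimates were below 0, from -0.21 (Mcm2) to -0.01 (Mcm6). Mcm2 had 127, 90.3 and 103 CPM in H3K9M and 128, 141 and 102 CPM in H3WT. Its H3K9M replicate 1 reached the H3WT level and its other 2 libraries were near or below the lowest H3WT library, and its estimate was -0.21 on the log2 scale (SE 0.17, adjusted p 0.658, edgeR). Mcm6 differed in its order of libraries, with 180 CPM in H3K9M replicate 3, the highest of its group.

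Cdc6 and Cdt1 load the helicase on origins, and Gins2 is part of the complex that activates it. Cdc6 had the lowest level per length of the 36 genes (3.99 CPM per kilobase of transcript) and the second lowest fold change. Its values were 16.4, 10.6 and 16.9 CPM in H3K9M and 22.7, 29.4 and 14.3 CPM in H3WT. Of the H3WT libraries only replicate 4 fell among the H3K9M values, and the log2 fold change was -0.60 (SE 0.31, unadjusted p 0.0851, adjusted p 0.465, edgeR). Leaving out H3WT replicate 2 gave -0.33, and leaving out H3WT replicate 4 gave -0.83. Cdt1 (-0.14) and Gins2 (-0.08) had smaller estimates.

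Pcna, the sliding clamp of the replication fork, had 106, 76.0 and 94.2 CPM in H3K9M and 86.5, 112 and 76.0 CPM in H3WT, and its log2 estimate was 0.01 (SE 0.18, adjusted p 0.987, edgeR). It was the only one of the 16 with an estimate above 0, and the ranges of the groups nearly coincided. For the enzymes of deoxynucleotide supply the log2 fold changes were -0.11 for Rrm1 and -0.24 for Rrm2, the subunits of ribonucleotide reductase, and -0.19 for Tyms, thymidylate synthase. Rrm2 had the highest level per length of the 36 (102 CPM per kilobase), followed by Cdc20 (70.3) and Pcna (60.4).

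E2f1, the transcription factor that starts the early wave, had 36.5, 22.3 and 37.9 CPM in H3K9M replicates 1, 3 and 5. In H3WT replicates 1, 2 and 4 it had 59.9, 37.7 and 54.8 CPM. The H3K9M values lay below the lowest H3WT value except in replicate 5, which exceeded H3WT replicate 2 by a fraction of 1 CPM. Means were 32.2 ± 8.65 and 50.8 ± 11.6 CPM (SD, n = 3 each). On the log2 scale the difference was -0.66 (95% interval -1.24 to -0.08, unadjusted p 0.0308, adjusted p 0.361, edgeR). With 1 library left out it was -0.44 without H3K9M replicate 3 (unadjusted p 0.0814), -0.52 without H3WT replicate 1 (unadjusted p 0.107) and -0.60 without H3WT replicate 4 (unadjusted p 0.085, edgeR). The lowest estimate was -0.82, without H3WT replicate 2 (adjusted p 0.151, edgeR). With offsets for GC content and transcript length the E2f1 estimate was -0.51 (unadjusted p 0.0664, edgeR). E2f1 also parted from the rest in its libraries, being high in H3WT replicate 4, where 35 of the 36 genes had their lowest H3WT value. The G1/S cyclins Ccne1 (-0.34) and Ccne2 (-0.05), which activate Cdk2, had estimates below 0 and adjusted p-values of 0.693 and 0.948 (edgeR).

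Further genes of the same pathways were read from the same fit. Of 64 other mitosis genes tested, 0 passed the adjusted test by edgeR, DESeq2 or limma-voom, with 1 lower and 1 higher at an unadjusted p under 0.05 and a median log2 fold change of -0.05. Of 55 other replication genes, 0 passed by edgeR or limma-voom and 1, Dut, passed by DESeq2. By edgeR 4 were lower and 1 higher at an unadjusted p under 0.05, with a median of -0.11. At that level 5.77% of all genes were lower and 6.42% higher, so neither list is read as a result. Both low libraries were also the 2 lowest of 6 in 47 of the 64 (73.4%) and in 28 of the 55 (50.9%). Of 23 E2F, retinoblastoma and DREAM genes 7 (30.4%) had that order, and of 15 G1 cyclins, kinases and inhibitors 2 (13.3%), nearer to the 6.74% of all genes.

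Single genes of these lists had larger estimates than most of the 36. Dut, which hydrolyses dUTP so that uracil stays out of DNA, had 84.5, 67.5 and 78.2 CPM in H3K9M and 49.6, 49.7 and 26.3 CPM in H3WT. Every H3K9M library lay above every H3WT library, and the log2 fold change was 0.87 (SE 0.25, unadjusted p 0.00756, adjusted p 0.252, edgeR). DESeq2 gave 0.87 with an adjusted p of 0.0486, under the threshold. Cdkn3, a phosphatase of Cdk1 and Cdk2, had 15.5, 11.7 and 18.8 CPM in H3K9M and 9.66, 7.63 and 9.07 CPM in H3WT. It too was separated, with a log2 fold change of 0.80 (SE 0.25, unadjusted p 0.0131, adjusted p 0.287, edgeR). Both lay opposite in sign to the medians of their lists.

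On the lower side, the claspin gene Clspn, which passes on the replication checkpoint signal, had a log2 fold change of -0.58, and Brca1, which acts in repair of broken forks, -0.47. The condensin II subunit Ncapd3 had -0.48. Values of the groups did not overlap for Brca1 and Ncapd3, and adjusted p-values of these 3 genes were 0.341, 0.348 and 0.382 (edgeR). By the same rule the checkpoint protein Bub3 (0.25), the cohesin protector Sgol2a (-0.38) and the origin recognition subunit Orc5 (0.53) were named, with unadjusted p-values of 0.0768, 0.061 and 0.0747.

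No gene in the further list of E2F and DREAM regulators, which leaves out the member E2f1, had an unadjusted p under 0.05. The median log2 fold change of the list was -0.09. The retinoblastoma gene Rb1, which restrains E2F1, had 0.45 (adjusted p 0.525, edgeR), and the DREAM core subunits Lin37 and Lin54 had 0.30 and -0.35. Cdc25a, a phosphatase that activates cyclin-dependent kinases, had -0.43. Foxm1, which drives the late wave, had 99.3, 51.9 and 100.1 CPM in H3K9M and 131, 95.3 and 67.6 CPM in H3WT. It was chosen after its values were seen, and its lowest values fell in the same libraries as those of the mitosis genes.

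Inhibitors of cyclin-dependent kinases did not share 1 order of libraries. Cdkn1a, which encodes p21, had 335, 517 and 229 CPM in H3K9M and 255, 244 and 277 CPM in H3WT. Within each group it was highest in the library with the lowest mitosis sum. Cdkn2a, which encodes p16 and p19ARF, had 26.8, 43.1 and 19.6 CPM in H3K9M and 14.2, 9.50 and 24.7 CPM in H3WT, and was highest in the same libraries. On the log2 scale the differences were 0.48 (SE 0.27, adjusted p 0.505) and 0.89 (SE 0.41, adjusted p 0.432, edgeR), with overlapping groups for both genes. Without H3K9M replicate 3 they were 0.14 and 0.54, without H3WT replicate 4 Cdkn2a had 1.34, and without H3K9M replicate 5 Cdkn1a had 0.73. Cdkn2c, which encodes p18 and was named after its values were seen, was in each group lowest in the library with the lowest mitosis sum. It had 50.7, 36.1 and 57.8 CPM in H3K9M and 66.6, 58.4 and 57.8 CPM in H3WT.

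Cdkn1b, which encodes p27, went the other way from p21. It had 41.0, 25.5 and 38.0 CPM in H3K9M and 57.5, 40.4 and 62.3 CPM in H3WT, with 1 H3K9M library just above the lowest H3WT library. Its log2 fold change was -0.62 (SE 0.23, unadjusted p 0.028, adjusted p 0.353, edgeR). The D-type cyclin Ccnd3 had 112, 88.8 and 104 CPM in H3K9M and 127, 178 and 123 CPM in H3WT, without overlap, and a log2 fold change of -0.49 (unadjusted p 0.0198, adjusted p 0.32, edgeR). Without H3WT replicate 2 it was -0.30.

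**Figure D5:**
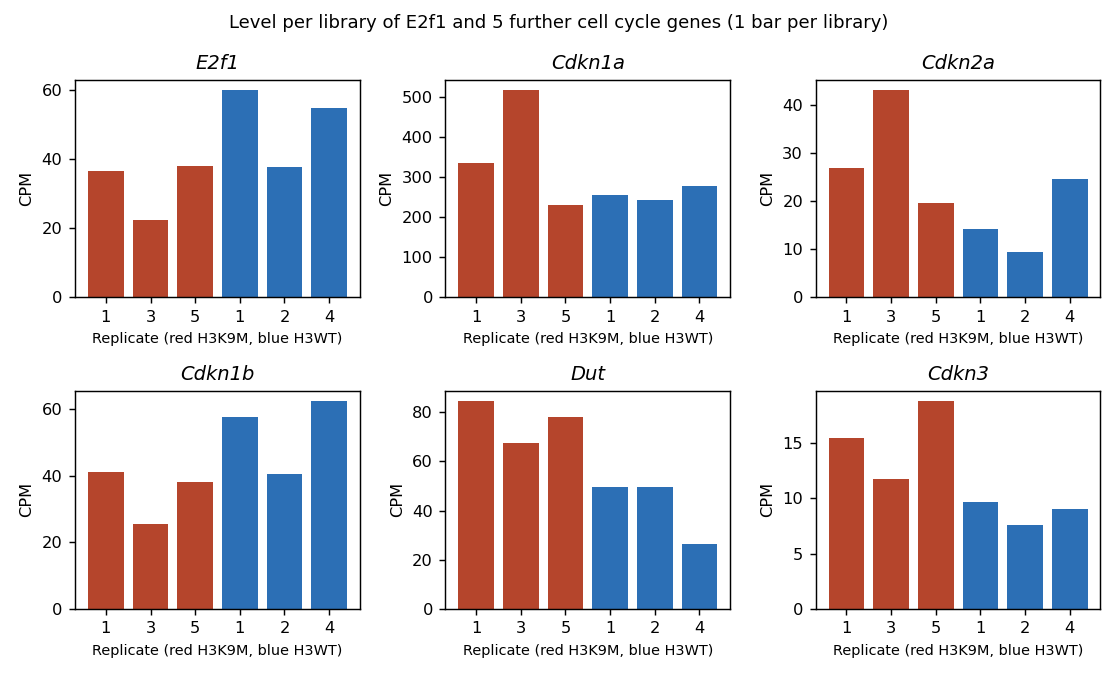
Level in CPM (y axis, 1 bar per library) of E2f1 and 5 further cell cycle genes in H3K9M replicates 1, 3 and 5 (red) and H3WT replicates 1, 2 and 4 (blue). Cdkn1a and Cdkn2a are highest in H3K9M replicate 3 and, within H3WT, in replicate 4, and the groups do not overlap for Dut and Cdkn3.

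The counts of some members are uncertain. Exons of Ccna2, Ccne2, Gins2, Kif20a, Mcm7 and Ube2c overlap by at least 200 bases those of a gene on the opposite strand (Exosc9, Ints8, Gse1, Cdc23, Ap4m1 and Tnnc2), and the strand setting of the counting is not given in the sources used here. Transcripts of 10 members share at least 500 bases at 90% identity or more with another locus. These loci were mostly processed pseudogenes, such as Ccnb1-ps, which matches Ccnb1 at 99.2% identity, and 1 of 13 (Tyms-ps) was itself in the count table.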

How the data were processed

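Per the labels' protocols, the library kit was Tecan's Universal Plus mRNA-Seq with NuQuant, on polyadenylated RNA. The authors deposited raw read counts per gene symbol for 6 libraries. The submitters' processing notes name HISAT2, featureCounts, DESeq2 and the build mm10, with versions, annotation and strand setting not given in the sources used here. The table held 0 columns of samples outside the series, every row carried a symbol, and groups came from the titles and genotype labels.

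The test was that of edgeR 4.0.16 (R 4.3.3): filterByExpr defaults, TMM scaling, robust quasi-likelihood fit with group as the only term, and Benjamini-Hochberg adjustment over 13761 genes at a threshold of 0.05. Standard errors are the size of the log2 fold change divided by the square root of F, and intervals are at 95%. CPM are TMM-scaled. An exact permutation of 3 libraries against 3 reaches no two-sided p under 0.1 and was not run. Alternatives were DESeq2 1.42.0, limma-voom (limma 3.58.1), 2 other scalings, 2 other filters, an adjusted p under 0.10, a loess offset within each library for GC content and transcript length, and leaving out each library. The computations were tested on simulated data.

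Named genes were all 36 members and, of each further list, the 2 with the smallest p in each direction. The members, the lists and the rules were chosen with earlier results of these data known, and members with values in every library were E2f1, Mki67, Top2a, Cdk1, Ccnb1, Pcna, Mcm2 and, added after its values were seen, Cdc6. Gene coordinates, overlaps and transcript lengths (longest coding transcript) came from GENCODE M21, similar transcripts from blastn, and promoter windows from RefSeq on GRCm38.p6.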

Additional observations from a re-analysis of the deposited data

How the results depend on the processing

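None of the 36 genes passed the adjusted test under any alternative, and the smallest adjusted p was 0.151 (E2f1, without H3WT replicate 2). Over all genes, 365 were called with DESeq2, 36 when every gene with at least 1 count was kept, 1 at an adjusted p under 0.10, and 0 to 91 on leaving out a library (91 without H3WT replicate 2). Members lower at an unadjusted p under 0.05 were 2 when every gene with a count was kept, 0 with the length and GC offset, and 0 to 2 on leaving out a library. Members higher at that level were 0 to 1. The count of members whose groups did not overlap, lower in H3K9M, was 1 (E2f1) with the DESeq2 test, with its size factors, with library size alone and with a filter of at least 10 counts throughout. On leaving out a library it was 0 to 13 in the lower direction (13 without H3WT replicate 4) and 0 to 5 in the higher (5 without H3K9M replicate 3). For counts at an unadjusted p and of groups that did not overlap, no share over all genes was counted in any alternative. In the main fit 5.77% of all genes were lower and 6.42% higher at an unadjusted p under 0.05. Groups did not overlap for 8.68% in the lower direction and 10.7% in the higher. These member counts are therefore not read as a result. Estimates below 0 were 12 of 36 without H3K9M replicate 3, 16 without H3WT replicate 2 and 32 without H3K9M replicate 1 or H3WT replicate 4. The median of the 36 was 0.07 without H3K9M replicate 3 and -0.28 without H3WT replicate 4, and that of the 16 replication genes stayed between -0.28 and -0.04. The sign of the estimate held in every alternative for 10 genes, turned only on leaving out a library for 17, and turned in another alternative for 9.

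The length and GC offset turned the log2 fold change of Ccnb2 to -0.23, Aurka to -0.0578, Cenpa to -0.00639, Cenpf to 0.0276, Kif23 to -0.0105, Gins2 to 0.031 and Pcna to -0.30. Limma-voom turned Aurka to -0.00318, and library size alone turned Bub1b to 0.00855 and Mcm6 to 0.0404. On leaving out each library in turn, genes whose sign turned had log2 fold changes in these ranges: Mki67 from -0.44 to 0.0283, Cdk1 from -0.0489 to 0.32, Ccnb2 from -0.25 to 0.36, Ccna2 from -0.28 to 0.16, Aurka from -0.21 to 0.35, Aurkb from -0.34 to 0.10, Plk1 from -0.48 to 0.0785 and Birc5 from -0.00305 to 0.46. Further ranges were Bub1 from -0.40 to 0.0353, Bub1b from -0.22 to 0.14, Cdc20 from -0.44 to 0.12, Cenpa from -0.00388 to 0.60, Cenpe from -0.42 to 0.037, Cenpf from -0.29 to 0.12, Kif11 from -0.27 to 0.11 and Kif20a from -0.35 to 0.0819. Others were Kif23 from -0.0907 to 0.26, Mcm3 from -0.21 to 0.0604, Mcm5 from -0.40 to 0.0206, Mcm6 from -0.13 to 0.12, Cdt1 from -0.23 to 0.0347, Gins2 from -0.22 to 0.0724, Pcna from -0.10 to 0.19 and Rrm1 from -0.28 to 0.0909. The last were Tyms from -0.40 to 0.000854 and Ccne2 from -0.21 to 0.0645. Members that moved by more than 1.5 times without turning ranged for Top2a from -0.42 to -0.0257, Ccnb1 from 0.12 to 0.55, Ube2c from 0.0306 to 0.55, Mcm2 from -0.35 to -0.0954, Mcm4 from -0.28 to -0.11, Mcm7 from -0.32 to -0.0585, Cdc6 from -0.83 to -0.33, Rrm2 from -0.43 to -0.0243 and Ccne1 from -0.67 to -0.0811. Of 16 named genes of the further lists 9 did so, for Ncapd3 from -0.65 to -0.32, Sgol2a from -0.50 to -0.23, Orc5 from 0.31 to 0.71, Rb1 from 0.24 to 0.65, Lin37 from 0.20 to 0.41, Cdc25a from -0.54 to -0.21, Cdkn1a from 0.14 to 0.73, Cdkn2a from 0.54 to 1.34 and Ccnd3 from -0.59 to -0.30. The causes were not tested. No paired analysis was possible because the groups share only replicate number 1. The lowest raw count of a member in any library was 219, and the common biological coefficient of variation over all genes was 0.336 (edgeR).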

Other observations

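Some regulators of G1 phase, the phase before DNA synthesis, had a library order unlike that of the mitosis genes. They were chosen after their values were seen. Cyclin D1 (Ccnd1), which activates Cdk4 and Cdk6, had 362, 939 and 448 CPM in H3K9M replicates 1, 3 and 5 and 368, 819 and 465 CPM in H3WT replicates 1, 2 and 4. Cdk6 had 41.7, 78.0 and 33.1 CPM in H3K9M and 14.3, 57.4 and 15.7 CPM in H3WT. Both were highest in H3K9M replicate 3 and H3WT replicate 2, a pair that holds the lowest and the highest summed level of the mitosis genes. Within each group Cdkn1c, which encodes the inhibitor p57, was also highest in these libraries, though over all 6 H3WT replicate 4 lay above H3K9M replicate 3. It had 6.97, 21.1 and 3.98 CPM in H3K9M and 19.99, 69.1 and 25.3 CPM in H3WT. Its log2 fold change was -1.83 (SE 0.76, unadjusted p 0.0508, adjusted p 0.411, edgeR), the largest estimate of the 15 G1 genes. Cyclin D2 (Ccnd2) varied less, between 685 and 905 CPM over the 6 libraries, and Cdk4 between 191 and 230 CPM.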
